A study of Mus musculus with 6 samples.

Results

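The genes examined were 10 transcripts that cells make when the kinase ERK is active and whose proteins mostly hold its signal back, the ERK feedback phosphatases and Sprouty genes. They were Dusp1, Dusp4, Dusp5, Dusp6, Spry1, Spry2, Spry4, Spred1, Spred2 and Ier3, chosen by name from the 54532 genes of the count table, and all 10 were found. Their mRNA levels were read in MLE12 cells, an immortalized mouse lung epithelial line labelled with the strain C57BL/6J, by RNA-seq of 6 samples. The Ctrl shRNA group (n = 3) was infected with a negative control lentivirus (shCtrl) at an MOI of 50. The study also calls this vector empty, though it lists a sequence for it. The knockdown group (n = 3) received a lentivirus with Idh3α shRNA and another with Slc25a1 shRNA together, each at an MOI of 50. The labels do not say whether the control cells received 1 or 2 doses of virus, and if they received 1, the effect of the larger total dose cannot be told apart from that of the knockdown. Idh3a encodes the catalytic subunit of a mitochondrial isocitrate dehydrogenase, Slc25a1 encodes the mitochondrial citrate carrier, and the study silenced both to make citrate build up in mitochondria. In both groups the virus was washed off after 16 h and the cells grew for 80 h more in HITES medium, which contains serum, insulin and hydrocortisone. The comparison asks whether the transcripts that report ERK output differed between the groups.

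Growth factors bind receptor tyrosine kinases, which load Ras with GTP, and Ras then drives the kinases Raf, MEK and ERK in turn. Active ERK induces its own inhibitors. Dual-specificity phosphatases (DUSPs) remove the activating phosphates from ERK in the nucleus or the cytoplasm, while Sprouty and Spred proteins act upstream, between the receptor, Ras and Raf. Because these transcripts are short-lived and follow ERK within hours, they are often used as a readout of the pathway, and in the lung Sprouty genes are known for restraining fibroblast growth factor signalling during airway branching.

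All 6 libraries held similar numbers of assigned reads, from 27273502 to 28535653, but Ctrl shRNA replicate 2 stood apart. That library had counts for 16681 genes against 19902 to 23147 in the others, 27.2% of its counts lay in its top 100 genes against 12.6% to 12.9%, and 6.49% of its counts were mitochondrially encoded against 1.57% to 1.80%. The biological coefficient of variation was 0.263 with this library and 0.102 without it, so the change of each feedback gene is given both ways, with 3 control samples or with 2. Group means and SDs are over all 3 samples of a group. Idh3a measured 79.8, 137 and 93.0 CPM (read counts relative to the TMM-scaled library size) in Ctrl shRNA replicates 1 to 3 and 58.5, 57.9 and 55.5 in the knockdown replicates (log2 fold change -0.85, edgeR adjusted p = 0.254; without Ctrl shRNA replicate 2, -0.60, adjusted p = 0.0142). Slc25a1 measured 103, 98.7 and 108 CPM against 68.9, 69.6 and 63.0 (log2 fold change -0.62, edgeR adjusted p = 0.104; without that library, -0.66, adjusted p = 0.00649). Both targets were lower in 3 of 3 knockdown samples. Of the markers of the labelled epithelial cell, Krt8, Krt19, Cdh1 and Nkx2-1 were expressed at 68.4 CPM or more in every library, and of the alveolar type 2 markers Sftpc and Abca3 were expressed and Sftpa1 and Sftpd were at or near 0. Epcam was low (2.39 to 4.01 CPM) and Krt18 was at or below 0.53 CPM. Of 15 markers of other lung cell types, 3 were at 0 in every library, Ptprc and Adgre1 of leukocytes and Scgb3a2 of club cells. Of the same list 7 passed the count filter, so it was not silent as a whole. The labels do not say whether the replicates were separate cultures, so p-values measure only the spread between these samples.

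No feedback gene passed the adjusted threshold of 0.05 in edgeR, with or without Ctrl shRNA replicate 2, and the 10 differences did not share a direction. Dusp1, a broad nuclear MAP kinase phosphatase, lay lower in the knockdown samples, at 28.7 against 36.6 CPM. Spred2 (53.6 against 44.4 CPM) and Ier3 (72.7 against 61.1 CPM) lay higher, as did Dusp4 and Dusp6, by amounts that depended on the divergent control library. Spry2 and Dusp5 differed little. The plot of CPM by library shows these values for each gene.

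**Figure D1:**
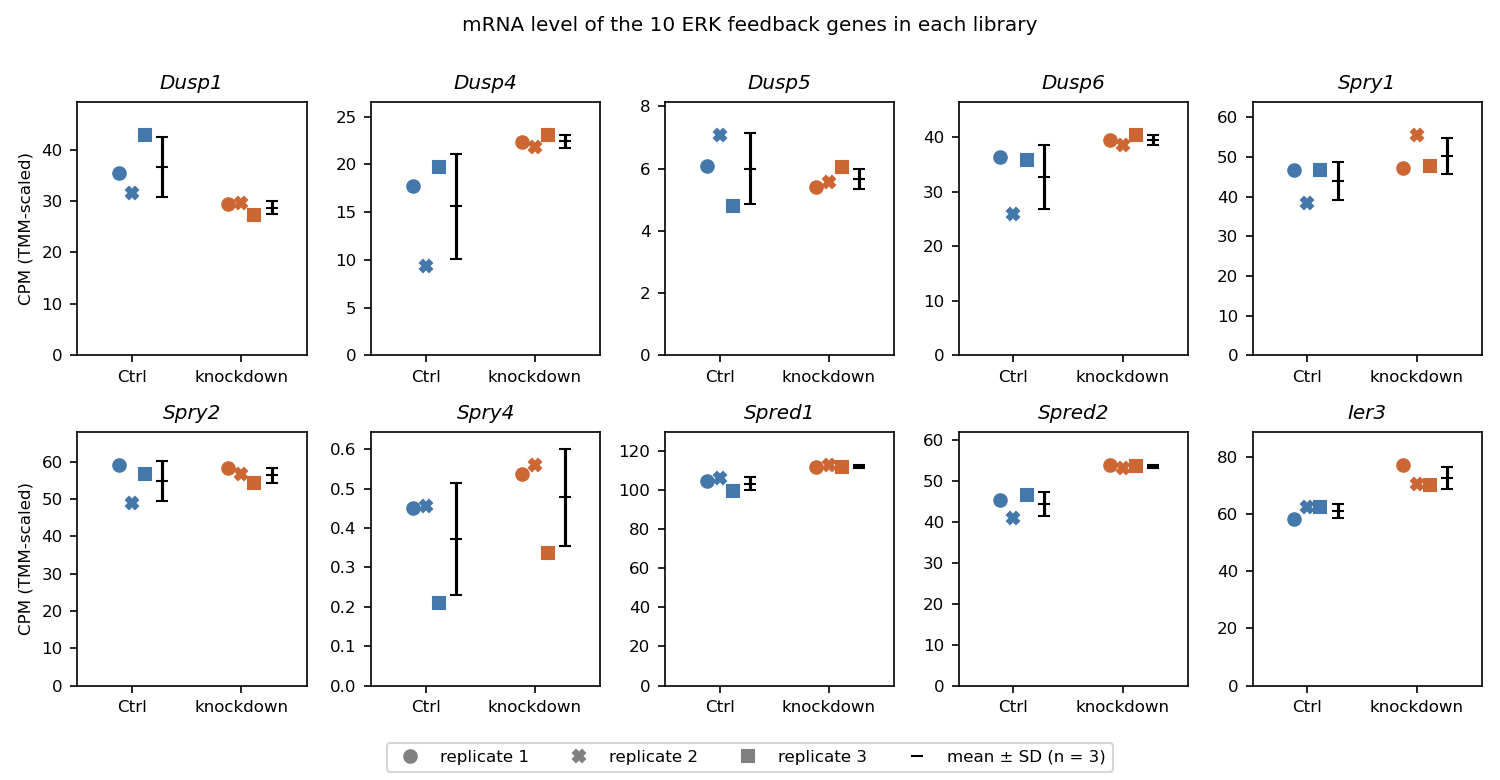
The mRNA level of each of the 10 genes in TMM-scaled CPM (y axis, from 0) in the Ctrl shRNA and knockdown (Idh3α shRNA + Slc25a1 shRNA) groups, with 1 point for each library, a marker shape for each replicate number, and the mean ± SD beside the points (n = 3). The knockdown points lie above every control point for Dusp4, Dusp6, Spry1, Spred1, Spred2 and Ier3, below every control point for Dusp1, and overlap the control points for Dusp5, Spry2 and Spry4.

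The stretches just upstream of 4 of the genes whose groups did not overlap in TMM-scaled CPM are shown, chosen after the values and motifs were seen. Dusp1 and Ier3 are the genes of this kind with a match to a motif searched. Dusp6 and Spred2 are examples without a match, as were Spry1 and Spred1, which are not printed. Promoter sequences from RefSeq (GRCm38.p6) matched 8 of the 10 genes by symbol, and Dusp4 and Spry4 are named only. Within the 250 bases before the RefSeq start, both strands were searched for the cAMP response element (CRE, TGACGTCA) and the AP-1 site (TGANTCA). They were also searched for a 6-letter form of the ETS core (CCGGAA) and, by name, for the serum response element's CArG box and the NF-kB site. Each stretch is written 5′ to 3′ on the strand of its gene and stops before the gene start of the deposited table, and capitals mark the match. The Dusp1 stretch is chr17:26508520-26508722 on the minus strand, Ier3 is chr17:35821463-35821683 on the plus strand, Dusp6 is chr10:99262981-99263230 on the plus strand and Spred2 is chr11:19924192-19924374 on the plus strand.
Dusp1: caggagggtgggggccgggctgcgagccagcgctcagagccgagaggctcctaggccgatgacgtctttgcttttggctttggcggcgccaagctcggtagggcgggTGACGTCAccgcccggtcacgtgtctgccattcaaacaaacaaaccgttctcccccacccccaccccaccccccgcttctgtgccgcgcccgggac
Ier3: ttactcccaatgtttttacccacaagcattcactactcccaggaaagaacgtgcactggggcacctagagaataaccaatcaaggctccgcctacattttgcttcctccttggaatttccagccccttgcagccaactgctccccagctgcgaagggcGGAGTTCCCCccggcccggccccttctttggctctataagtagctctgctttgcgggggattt
Dusp6: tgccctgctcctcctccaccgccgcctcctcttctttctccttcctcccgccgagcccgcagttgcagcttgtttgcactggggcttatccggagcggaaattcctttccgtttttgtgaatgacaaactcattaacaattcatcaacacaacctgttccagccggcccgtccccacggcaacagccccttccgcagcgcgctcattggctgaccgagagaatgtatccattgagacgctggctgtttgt
Spred2: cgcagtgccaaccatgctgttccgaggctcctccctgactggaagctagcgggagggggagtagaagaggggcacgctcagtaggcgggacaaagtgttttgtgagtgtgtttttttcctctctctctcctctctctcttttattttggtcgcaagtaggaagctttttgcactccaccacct

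Dusp1 held a full CRE from position -143 to -136 before its start, a sequence found in 1.55% of all 32851 promoters of this length. Ier3 held an NF-kB site from -92 to -83, read on the minus strand, which 7.25% of promoters hold. Dusp5 held a pair of adjacent CArG boxes, from -82 to -73 and from -72 to -63, against 1.47% of promoters with any. The AP-1 site (6.75% of promoters) and the ETS form CCGGAA (12.03%) were found in 0 of the 8 genes. Other forms of the ETS core were not searched, so their absence is not shown. The GC content of the 8 stretches of 250 bases ran from 54.4% to 70.8% with a median of 62.4%, against a median of 52.4% over all promoters. For Spred1 the RefSeq start differed from the GENCODE transcripts, so its window may not precede the transcripts counted. A match is a description of letters and not evidence that a factor was bound there.

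**Figure D2:**
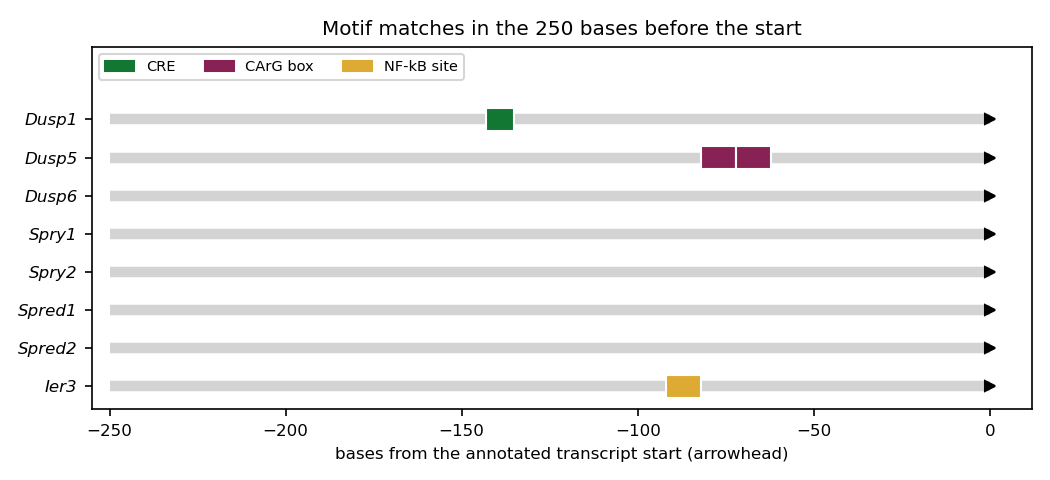
Motif matches in the 250 bases before the annotated start (arrowhead at 0) of the 8 feedback genes with a RefSeq promoter sequence, with the distance from the start in bases on the x axis and 1 grey line for each gene. Dusp1 has the only CRE, Dusp5 the only CArG boxes and Ier3 the only NF-kB site, and the other 5 lines have no match.

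Of the inducible nuclear phosphatases, Dusp1 (ENSMUSG00000024190, chromosome 17, 26505590 to 26508519, minus strand) acts on p38 and JNK as well as ERK and is induced by stress and by glucocorticoids. It measured 35.4, 31.5 and 42.9 CPM in Ctrl shRNA replicates 1 to 3 and 29.3, 29.5 and 27.3 CPM in the knockdown replicates. All 3 knockdown values lay below all control values, although the lowest control exceeded the highest knockdown sample by little. This was a log2 fold change of -0.35 ± 0.13 (SE, n = 3 and 3, 95% interval -0.66 to -0.04), with a Benjamini-Hochberg adjusted p of 0.345 in edgeR. Without Ctrl shRNA replicate 2 it was -0.46 ± 0.10 (adjusted p = 0.0619 in edgeR and 0.0064 in DESeq2). In unscaled CPM, taken from the total count without TMM factors, that library stood at 22.4 for Dusp1 against 29.2 to 31.9 in the knockdown samples, so the groups overlapped on that scale. Of 10 genes known to respond to glucocorticoids, all tested, edgeR called 0 with or without that library, while DESeq2 called 0 with all samples and 1 lower without it. DESeq2 without that library called 2.65% of all genes lower. At an unadjusted p under 0.05 edgeR had 1 higher and 1 lower with all samples, where 7.47% and 6.65% of all genes were, and 2 and 2 without that library, where 9.54% and 10.3% were. The median log2 fold change of these genes changed sign, from 0.05 with all samples to -0.053 without that library. The most abundant of them were Ddit4 (126 ± 10.4 against 86.4 ± 17.1 CPM, edgeR adjusted p = 0.312, and 0.118 without that library) and Klf9 (63.1 ± 3.52 against 61.0 ± 2.84 CPM).

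Dusp4 (ENSMUSG00000031530, chromosome 8, 34807297 to 34819894, plus strand) encodes a related nuclear phosphatase. It measured 17.7, 9.36 and 19.8 CPM in the controls and 22.3, 21.8 and 23.1 CPM in the knockdown samples. The knockdown samples were all higher, and the low value of Ctrl shRNA replicate 2, 0.50 times the mean of the other controls, set much of the difference. Its log2 fold change was 0.52 ± 0.27 (95% interval -0.13 to 1.16, edgeR adjusted p = 0.384) and 0.25 ± 0.09 without that library (95% interval 0.04 to 0.46, adjusted p = 0.190). Dusp5 (ENSMUSG00000034765, chromosome 19, 53529109 to 53542431, plus strand), a nuclear phosphatase specific to ERK, measured 6.07, 7.09 and 4.81 CPM against 5.41, 5.57 and 6.04 CPM. Its groups overlapped, and its log2 fold change was -0.08 with all samples (95% interval -0.51 to 0.36, edgeR adjusted p = 0.852) and 0.048 without Ctrl shRNA replicate 2 (95% interval -0.32 to 0.41), so its direction was not settled.

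Dusp6 (ENSMUSG00000019960, chromosome 10, 99263231 to 99267489, plus strand) encodes the ERK phosphatase of the cytoplasm and is among the transcripts most often read as a report of ERK activity. It measured 36.3, 25.9 and 35.7 CPM in the controls and 39.4, 38.6 and 40.5 CPM in the knockdown samples. Every knockdown sample lay above every control, and the lowest control was again Ctrl shRNA replicate 2. On the log2 scale the change was 0.27 ± 0.14 (95% interval -0.07 to 0.61, edgeR adjusted p = 0.384) and 0.12 ± 0.07 without that library (95% interval -0.05 to 0.29, adjusted p = 0.388). Within a library the count of Dusp6 over that of Dusp1 needs no scaling. That ratio was 1.03, 0.822 and 0.833 in the controls and 1.34, 1.31 and 1.48 in the knockdown samples. Dusp4 over Dusp1 was 0.50, 0.297 and 0.461 against 0.762, 0.738 and 0.847. Both ratios, which were chosen after the values were seen and were not tested, were higher in every knockdown sample than in any control. This order follows from the CPM values already given and adds no separate evidence.

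The Sprouty genes encode membrane-associated inhibitors that dampen receptor signalling to Ras and Raf. Spry1 (ENSMUSG00000037211, chromosome 3, 37639947 to 37644598, plus strand) measured 46.6, 38.3 and 46.7 CPM in the controls and 47.3, 55.6 and 47.8 CPM in the knockdown samples. The groups were separated by a narrow margin and overlapped in unscaled CPM. Its log2 fold change was 0.19 ± 0.12 (95% interval -0.09 to 0.47, edgeR adjusted p = 0.419) and 0.10 without Ctrl shRNA replicate 2 (95% interval -0.11 to 0.30, adjusted p = 0.585). Leaving out knockdown replicate 2, the highest sample, moved it to 0.12. Gm42922, a transcript on the opposite strand, overlaps Spry1 over 710 bases, but it held 11 counts in all against 8053 for Spry1. Spry2 (ENSMUSG00000022114, chromosome 14, 105891947 to 105896819, minus strand) measured 59.1, 48.9 and 56.6 CPM against 58.3, 56.7 and 54.3 CPM. Its groups overlapped. Its log2 fold change was 0.04 (95% interval -0.19 to 0.26, edgeR adjusted p = 0.852) and -0.047 without that library (95% interval -0.21 to 0.11). Spry4 (ENSMUSG00000024427) was close to the limit of detection, with 14, 9 and 6 reads in the controls and 16, 17 and 10 in the knockdown samples. At this depth no difference in Spry4 could be detected (log2 fold change 0.37, 95% interval -0.79 to 1.53, edgeR adjusted p = 0.711; without Ctrl shRNA replicate 2, 0.51, 95% interval -0.69 to 1.70, adjusted p = 0.626). With each library left out in turn the value ran from 0.062 to 0.57.

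The Spred genes encode Sprouty-related proteins that bring the Ras inactivator neurofibromin to the membrane. Spred1 (ENSMUSG00000027351, chromosome 2, 117121374 to 117182279, plus strand) measured 105, 106 and 99.3 CPM in the controls and 112, 113 and 112 CPM in the knockdown samples. The knockdown samples were all higher, by a small margin. Its log2 fold change was 0.12 ± 0.06 (95% interval -0.04 to 0.28, edgeR adjusted p = 0.398) and 0.13 ± 0.06 without Ctrl shRNA replicate 2 (adjusted p = 0.308), but 0.077 without Ctrl shRNA replicate 3, the lowest of the controls. Spred2 (ENSMUSG00000045671, chromosome 11, 19924375 to 20024026, plus strand) measured 45.5, 41.1 and 46.7 CPM against 53.9, 53.1 and 53.7 CPM. All 3 knockdown values were higher and lay within 1 CPM of each other. This gave a log2 fold change of 0.27 ± 0.08 (95% interval 0.08 to 0.46, edgeR adjusted p = 0.312) and 0.21 ± 0.07 without Ctrl shRNA replicate 2 (95% interval 0.05 to 0.36, adjusted p = 0.158).

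Ier3 (ENSMUSG00000003541, chromosome 17, 35821684 to 35822923, plus strand) is an immediate early gene whose protein is phosphorylated by ERK, and it is also induced by NF-kB. It measured 58.1, 62.5 and 62.5 CPM in the controls and 77.2, 70.4 and 70.3 CPM in the knockdown samples. The groups did not overlap, and Ctrl shRNA replicate 2 lay at 1.04 times the mean of the other controls. For Ier3 the log2 fold change was 0.25 ± 0.08 (95% interval 0.07 to 0.43, edgeR adjusted p = 0.320) and 0.26 ± 0.07 without that library (95% interval 0.09 to 0.43, adjusted p = 0.127).

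**Figure D3:**
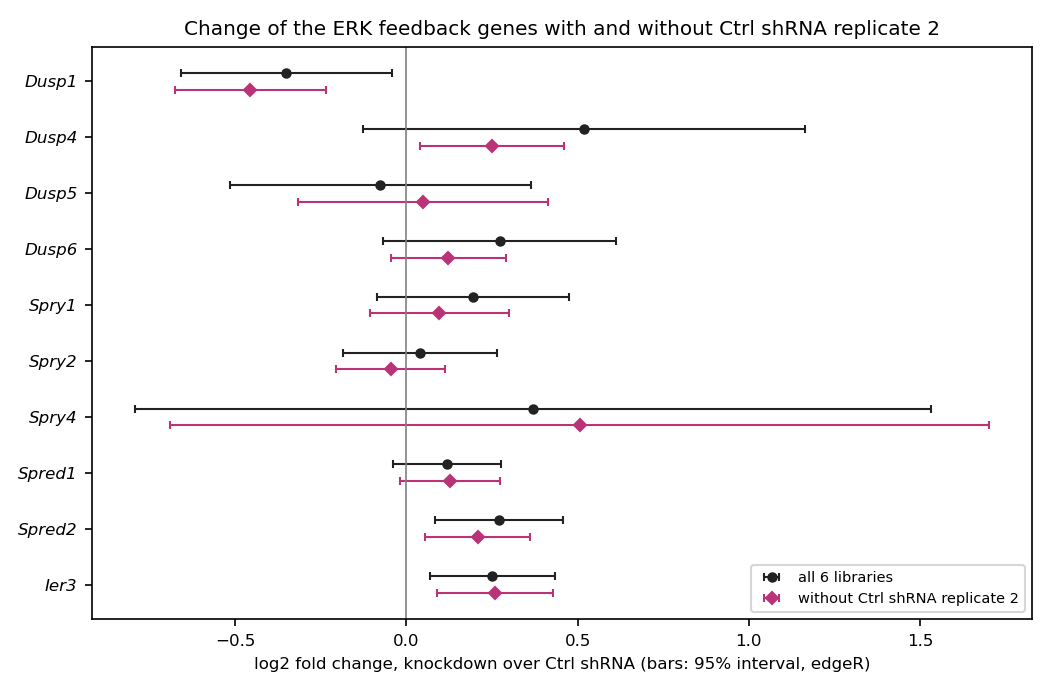
The log2 fold change of each feedback gene, knockdown over Ctrl shRNA, with its 95% interval (x axis), from edgeR with all 6 libraries (circles) and without Ctrl shRNA replicate 2 (diamonds). The intervals of Dusp1 lie below 0 and those of Spred2 and Ier3 above 0 both ways, the point of Dusp4 moves from 0.52 to 0.25 without that library, and the points of Dusp5 and Spry2 change sign.

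Counted together, 8 of the 10 log2 fold changes were above 0 and their median was 0.22, whereas over all 15307 genes tested 48.7% were above 0 and the median was -0.01. Without Ctrl shRNA replicate 2, 8 were again above 0, and the median fell from 0.22 to 0.12, against -0.02 over all genes. All 10 genes passed the count filter. In edgeR with all samples 0 of 10 were called higher or lower, where 0.0588% of all genes were called higher and 0.00653% lower. At an unadjusted p under 0.05, Spred2 and Ier3 were higher and Dusp1 was lower, where 7.47% and 6.65% of all genes were. Leaving out Ctrl shRNA replicate 2, edgeR again called 0 of 10 (1.11% of 15709 genes higher, 0.675% lower), and at an unadjusted p under 0.05 Dusp4, Spred2 and Ier3 were higher and Dusp1 lower (9.54% and 10.3% of genes). DESeq2 called 0 of the 9 genes for which it gave an adjusted p (1.55% of genes higher, 0.958% lower), and without that library it called Dusp1 lower and 0 higher (3.93% higher, 2.65% lower). Limma with voom and sample quality weights, which gave Ctrl shRNA replicate 2 the lowest weight, called Dusp1 lower and Spred2 and Ier3 higher (8.67% higher, 6.34% lower), and of these calls only that of Dusp1 was shared by another tool run with an adjusted p.

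By CPM, 6 of the 10 genes had knockdown samples all above the controls and 1 had them all below, where 14.7% and 10.7% of all genes did. In unscaled CPM the numbers were 5 and 0, where 17.4% and 5.51% of all genes did, with Spry1 and Dusp1 overlapping. Without TMM scaling the median log2 fold change of all genes moved to 0.16 and that of the 10 genes to 0.38, so the distance between them was similar on both scales. With 3 samples against 3 an exact two-sided permutation test cannot give a p under 0.1, so it could not reach 0.05 for any gene. The level of each gene in Ctrl shRNA replicate 2 was divided by its mean in the other controls, and the median of these ratios was 0.868 over the 10 genes, against 0.967 over all genes. In bulk RNA, fewer cells expressing a transcript and less of it per cell cannot be told apart.

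**Figure D4:**
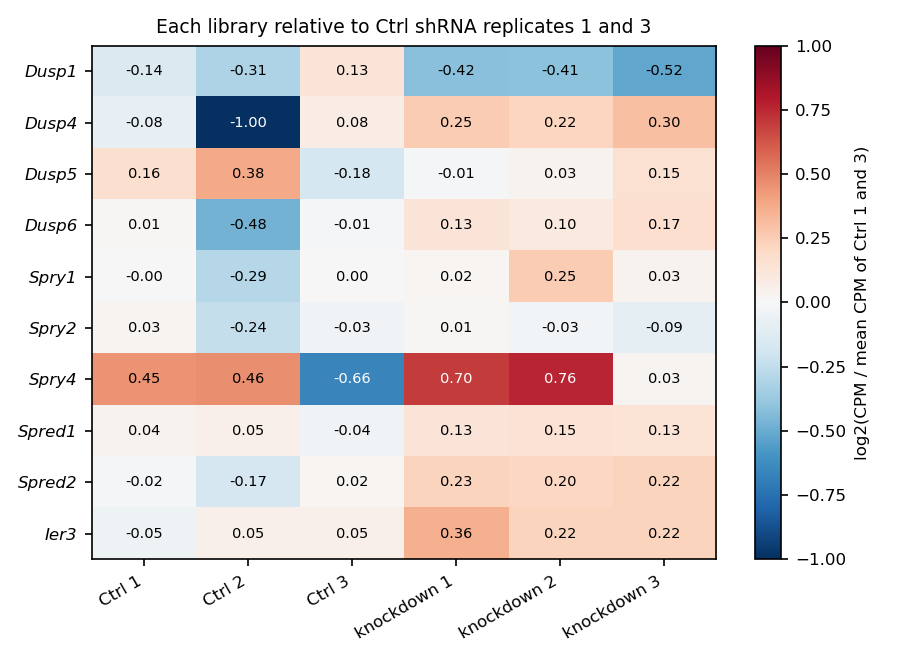
The level of each feedback gene (rows) in each library (columns) as log2 of its CPM over the mean CPM of Ctrl shRNA replicates 1 and 3, on a color scale from -1 to 1. Ctrl 2 reaches -1.0 for Dusp4 and -0.48 for Dusp6, while the knockdown columns run from -0.52 to -0.41 for Dusp1 and from 0.20 to 0.36 for Spred2 and Ier3.

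Per unit of gene length, Ier3 was the most abundant of the 10 at 59.3 ± 6.21 FPKM (SD, n = 6 over both groups), followed by Spry2 at 26.7 ± 1.89 FPKM. These levels did not overlap in any library. The next group in FPKM held Spry1 (16.2 ± 1.94), Spred1 (15.9 ± 0.77), Dusp1 (12.1 ± 2.16), Dusp6 (11.6 ± 1.73) and Spred2 (10.6 ± 1.19). Within that group each gene's range overlapped that of its neighbour. Dusp4 stood lower at 6.96 ± 1.89 FPKM, Dusp5 at 2.36 ± 0.30 FPKM and Spry4 at 0.093 ± 0.029 FPKM, and in all 6 libraries each of these was below the one before it. MLE12 cells carried Spry1 and Spry2 mRNA but little Spry4 in both groups.

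Other transcripts that follow ERK activity lay on both sides of their control levels. Of 18 such genes 17 were tested. With all samples edgeR called 0, where 0.0588% of all genes were called higher and 0.00653% lower, and DESeq2 called 3 higher and 3 lower, where 1.55% and 0.958% were. At an unadjusted p under 0.05 edgeR had 8 higher and 3 lower, where 7.47% and 6.65% of all genes were. Without Ctrl shRNA replicate 2 edgeR called 3 higher and 3 lower, where 1.11% and 0.675% were (7 and 4 unadjusted, where 9.54% and 10.3% were), and DESeq2 called 5 and 3, where 3.93% and 2.65% were. The median log2 fold change of the list was 0.28 with all samples and 0.23 without that library. Egr1, the immediate early zinc finger factor, measured 193, 164 and 166 CPM in the controls and 61.0, 85.9 and 58.6 CPM in the knockdown samples. Its groups did not overlap (log2 fold change -1.35 with all samples, edgeR adjusted p = 0.104, and -1.40 without Ctrl shRNA replicate 2, adjusted p = 0.00663). Fos, a subunit of AP-1, went from 26.2 ± 5.67 to 10.7 ± 1.33 CPM (edgeR adjusted p = 0.135 with all samples, and 0.00649 without that library at a log2 fold change of -1.10). Ier2, another immediate early gene, went from 101 ± 12.7 to 58.7 ± 2.21 CPM (adjusted p = 0.112, and 0.000913 without that library at -0.90). In the other direction, Etv5, an ETS factor induced downstream of fibroblast growth factor receptors, measured 27.6, 23.5 and 23.2 CPM against 39.5, 36.5 and 37.9 CPM (edgeR adjusted p = 0.166, and 0.0312 without that library at 0.57). Myc measured 64.9 ± 2.18 against 103 ± 12.3 CPM (adjusted p = 0.144, and 0.0211 without that library at 0.64). Plaur, the urokinase receptor, measured 6.16 ± 1.11 against 10.1 ± 0.52 CPM (adjusted p = 0.245, and 0.0165 without that library at 0.87). Ccnd1, the most abundant of the list, measured 332 ± 23.1 against 407 ± 11.1 CPM and was not called (edgeR adjusted p = 0.327, and 0.123 without that library). Per library the count of Etv5 over that of Egr1, another ratio chosen after the values were seen, was 0.143, 0.143 and 0.140 in the controls and 0.647, 0.425 and 0.647 in the knockdown samples. Its separation also follows from the CPM values of the genes.

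**Figure D5:**
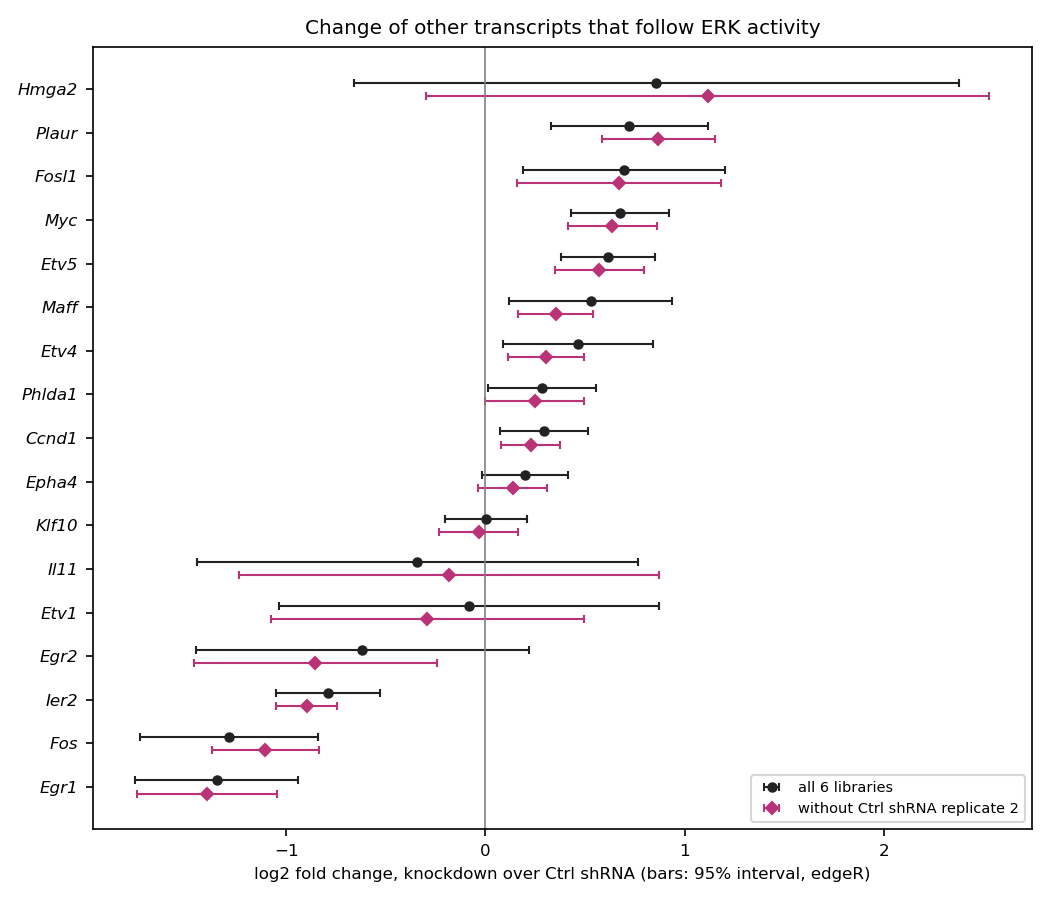
The log2 fold change, knockdown over Ctrl shRNA, of the 17 other ERK-following transcripts that were tested, with 95% intervals (x axis), from edgeR with all 6 libraries (circles) and without Ctrl shRNA replicate 2 (diamonds). Egr1, Fos and Ier2 lie at the lower end, from -1.40 to -0.90 without that library, and Plaur, Myc and Etv5 lie above 0, from 0.57 to 0.87.

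For the relatives of the feedback genes and the lists that follow, the shares of all genes called are these. EdgeR called 0.0588% higher and 0.00653% lower, or 1.11% and 0.675% without Ctrl shRNA replicate 2. Unadjusted, the shares were 7.47% and 6.65%, or 9.54% and 10.3% without that library. DESeq2 called 1.55% and 0.958%, or 3.93% and 2.65% without it. Of 9 other MAP kinase phosphatases and Sprouty relatives 8 were tested. EdgeR called 0 both with all samples and without Ctrl shRNA replicate 2, with 3 higher and 0 lower unadjusted each time, and DESeq2 called 1 higher each time. Dusp8 and Dusp10 act mainly on JNK and p38. Dusp8 measured 46.7 ± 1.78 CPM in the controls and 59.3 ± 1.56 CPM in the knockdown samples (edgeR adjusted p = 0.209, and 0.0712 without that library). Dusp10 measured 27.9 ± 1.20 against 33.5 ± 2.55 CPM (adjusted p = 0.339 and 0.222). Among 12 other feedback inhibitors of receptor and Ras signalling edgeR called 0 both ways, with 1 higher unadjusted each time, and DESeq2 called 0 with all samples and 1 higher without that library. Lrig1, which restrains ErbB receptors, measured 122 ± 9.26 against 152 ± 6.21 CPM (edgeR adjusted p = 0.293 and 0.119), and Socs3 measured 41.7 ± 5.26 against 44.4 ± 2.27 CPM (adjusted p = 0.698 and 0.936).

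Of 19 growth factor ligands 15 were tested. EdgeR called 0 with all samples (3 higher and 0 lower unadjusted) and 2 higher without Ctrl shRNA replicate 2 (4 and 0 unadjusted), and DESeq2 called 2 and 3 higher. The ligands that edgeR called without that library were Nrg1, which binds ErbB receptors, at 31.8 ± 0.87 against 45.5 ± 0.56 CPM (adjusted p = 0.111 with all samples and 0.0160 without), and Pdgfb at 33.5 ± 2.16 against 45.2 ± 0.90 CPM (adjusted p = 0.180 and 0.0478). The most abundant ligands, Vegfa (edgeR adjusted p = 0.468 and 0.680) and Pdgfa (0.302 and 0.0894), were not called.

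Of 17 receptor tyrosine kinases 13 were tested, and edgeR called 0 both ways. Unadjusted, 6 were higher and 1 lower with all samples, but 3 and 3 without Ctrl shRNA replicate 2, and the median log2 fold change went from 0.11 to 0.00071. DESeq2 called 0 with all samples and 2 higher without that library. Epha2 and Erbb2 were the most abundant (edgeR adjusted p = 0.353 and 0.642, and 0.257 and 0.946 without that library). All 18 adaptors, Ras proteins and exchange factors were tested, and edgeR and DESeq2 called 0 both ways. Unadjusted in edgeR, 1 was higher and 1 lower with all samples, and 0 and 3 without that library. Rras measured 86.6 ± 11.8 against 67.0 ± 4.72 CPM (edgeR adjusted p = 0.330 and 0.136) and Grb2 161 ± 9.49 against 162 ± 2.47 CPM (0.939 and 0.744).

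Of 15 Raf, MEK and ERK kinases and scaffolds 14 were tested with all samples and 15 without Ctrl shRNA replicate 2. EdgeR called 0 both ways (2 higher and 1 lower unadjusted, then 3 and 1), and DESeq2 called 1 and then 2 higher. Pebp1, an inhibitor of Raf, measured 233 ± 33.1 against 239 ± 23.4 CPM (edgeR adjusted p = 0.911 and 0.664). Mapk3, which encodes ERK1, measured 159 ± 15.6 against 168 ± 18.4 CPM (adjusted p = 0.741 and 0.972). Of 13 p38 and JNK kinases edgeR called 0 with all samples and 1 higher without that library (4 higher and 0 lower unadjusted each time), and DESeq2 called 0 and then 1 higher. The gene edgeR called was Mapk11, a p38 kinase (log2 fold change 0.65 and 0.43, adjusted p = 0.330 and 0.0497), while the most abundant, Mapkapk2 and Mapk14, were not called. RNA levels do not report the phosphorylation of these kinases.

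Some marker genes differed between the groups. Of 14 epithelial and alveolar type 2 markers 9 were tested with all samples and 11 without Ctrl shRNA replicate 2. EdgeR called 0 and then 1 lower (1 higher and 2 lower unadjusted, then 2 and 2), and DESeq2 called 0 and then 2 lower. The gene edgeR called was Sftpc, at 44.1, 97.3 and 50.9 CPM in the controls against 35.9, 28.5 and 27.2 CPM (adjusted p = 0.315 with all samples and 0.0438 without that library). The summed level of that list ran from 1583 to 1709 CPM in the controls and from 1647 to 1769 CPM in the knockdown samples. Of 15 markers of other lung cell types 7 were tested, and edgeR and DESeq2 called 0 with all samples and 1 lower without that library (in edgeR 2 higher and 2 lower unadjusted, then 3 and 2). This was, in edgeR, Ager, an alveolar type 1 marker, at 437, 365 and 470 CPM against 350, 307 and 319 CPM (adjusted p = 0.334 and 0.0223). That list summed to between 493 and 569 CPM in the controls and between 380 and 434 CPM in the knockdown samples, and Ager made up most of each sum. The median log2 fold change of the list was 0.51 with all samples and 0.13 without that library, with 4 of 7 above 0 each time. Ptprc, Adgre1 and Scgb3a2, 3 of its genes, were at 0 throughout. The part of these markers in the levels of the feedback genes was not tested.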

How the data were processed

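The 6 samples, 3 in each group, were measured by paired-end RNA-seq. The authors deposited unnormalized integer counts for each gene, and FPKM values made from them with the gene length and a library size. The submitters' processing notes name HISAT2 2.0.5, StringTie 1.3.3b, featureCounts 1.5.0-p3 and mm10, and the labels name Trinity. Use of strand is not given in the sources used here. Of 54409 genes also in GENCODE M21 98.3% had identical positions, as had 8 of the 10 feedback genes. Dusp1 and Spry4 differed, and their positions are those of the deposited table. No column of per-sample values was left unused.

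Counts were filtered with filterByExpr, scaled by TMM and fitted in edgeR 4.0.16 (R 4.3.3) with its two-sided quasi-likelihood test, and p-values were adjusted by Benjamini-Hochberg across every gene in the fit. A count model was chosen because the values are counts. CPM values use the TMM factors unless called unscaled, and an SE is the log2 fold change over the square root of F. Alternatives were other scalings, filters and thresholds, protein-coding genes only, a replicate block, fits that each lacked 1 library, DESeq2 1.42.0, and limma 3.58.1 on voom values with sample weights or on log2(FPKM + 1) or log2(FPKM + 0.1). The procedures were checked on simulated counts. Plots were drawn in matplotlib 3.10.9, and tables were joined in pandas 2.3.3 under Python 3.11.15.

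The 10 genes and the lists were chosen with earlier results of these data known. Named genes were all 10, both knockdown targets, and from each list the 2 genes with the highest mean FPKM and every gene that edgeR called with all samples or without Ctrl shRNA replicate 2 (of the other cell type markers, the single most abundant). Other marker genes named describe the cell line and were chosen after their values were seen.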

Additional observations from a re-analysis of the deposited data

How the results depend on the processing

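Of 177 alternative values for the log2 fold changes of the 10 genes, 166 kept their direction and did not newly pass the threshold, 4 passed it and 7 changed sign. Among the 166 are 2 DESeq2 values of Spry4, for which DESeq2 gave no adjusted p. Limma with sample quality weights called 2 genes higher (Spred2, 0.21, adjusted p = 0.0326, and Ier3, 0.25, adjusted p = 0.0330) and 1 lower (Dusp1, -0.53, adjusted p = 0.0084). That fit called 8.67% of all genes higher and 6.34% lower. DESeq2 without Ctrl shRNA replicate 2 called 1 lower (Dusp1, -0.45, adjusted p = 0.0064), where 2.65% of all genes were. Unadjusted in edgeR, 2 were higher and 1 lower, where 7.47% and 6.65% of all genes were. By library size only Dusp5 stood at 0.13, but this scaling moved the median of all genes to 0.16, so Dusp5 still lay below it. In the other 6 cases the sign changed without Ctrl shRNA replicate 2 in edgeR (0.048 for Dusp5 and -0.047 for Spry2) and in DESeq2 (0.055 and -0.040), and with sample weights (0.16 and -0.0041). With each library left out in turn Dusp5 ran from -0.23 to 0.048 and Spry2 from -0.047 to 0.10. The causes were not tested. Over all settings the adjusted p ran from 0.0064 to 0.777 for Dusp1, from 0.0326 to 0.675 for Spred2 and from 0.0330 to 0.675 for Ier3. Deviations of same-numbered samples from their group means correlated at -0.212, -0.156 and 0.0210. These could not settle whether replicate numbers pair the samples, because Ctrl shRNA replicate 2 dominated the control deviations. Its deviations correlated at -0.889 with those of Ctrl shRNA replicate 1 and at -0.804 with those of replicate 3. With a replicate block 0 of the 10 genes were called either way. Of the other lists, that of ERK-following transcripts varied most in the number called. DESeq2 called 3 higher and 3 lower with all samples (1.55% and 0.958% of all genes). Without Ctrl shRNA replicate 2 it called 5 and 3 (3.93% and 2.65%). With sample weights 7 were called higher and 3 lower (8.67% and 6.34%). The weighted fit also called 6 receptor tyrosine kinases higher and 2 lower, and 5 growth factor ligands higher and 0 lower. The p38 and JNK list and the Raf, MEK and ERK list each had 3 higher and 0 lower.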
